A study of Mus musculus with 6 samples.

Results

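The 10 genes described here encode the troponin subunits and the tropomyosins of striated muscle, and they were taken by name from the 18099 genes of the deposited table. The slow class held *Tnnc1*, *Tnni1*, *Tnnt1* and *Tpm3*, and the fast class held *Tnnc2*, *Tnni2*, *Tnnt3* and *Tpm1*. *Tnnt2* was set apart as the embryonic and cardiac troponin T, and *Tpm2* belonged to neither class. The rule that lists them uses gene names alone, but the genes were chosen with earlier results of these data known. The material was injured Achilles tendon of neonatal mice, sequenced as bulk RNA from 3 control mice and 3 Lysm-Cre; Ampkα1fl/fl mice. In every mouse the Achilles tendon of each leg had been transected, and the repair tissue was collected a week after the operation. The controls were littermates that carried the same floxed Ampkα1 alleles without Cre, as the study's methods give them. Cre was driven by the lysozyme M promoter, which is active in myeloid cells in general, whereas the RNA came from all cells of the tissue. The comparison asks whether Lysm-Cre; Ampkα1fl/fl mice had other levels of these genes in the healing tendon than the controls.

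Troponin and tropomyosin form the calcium switch of the thin filament in striated muscle. Tropomyosin is a coiled coil that lies along the actin filament and covers the sites where myosin heads bind. Troponin C binds calcium, troponin I holds the filament in the inhibited state, and troponin T ties the complex to tropomyosin. Slow and fast skeletal fibres use troponin subunits from different genes, and the cardiac troponin T gene *Tnnt2* is also used by embryonic and regenerating skeletal muscle. The troponin genes for skeletal muscle are markers of muscle fibres, which are no part of the tendon itself but join it at the muscle end. Tropomyosin genes are used much more widely, because alternative promoters and exons let one gene make a striated muscle protein and a cytoskeletal protein of fibroblasts and other cells.

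Each library held 18076805 to 19479887 reads assigned to transcripts. The 12 genes of the tendon list together stood at 94893 to 111996 CPM, the read count scaled to library size, in the 6 libraries. Most of this sum came from the collagen genes *Col1a1* and *Col1a2*, with 49057 and 42361 of 104338 CPM in control replicate 1. *Prkaa1*, which encodes AMPKα1, had a log2 fold change of -0.08 ± 0.09 (SE, adjusted p = 0.744) in the edgeR quasi-likelihood fit of all genes. *Lyz2*, the lysozyme M gene that carries the Cre insertion, stood at 390.4 to 425.0 CPM in the controls and at 0.432 to 0.811 CPM in the Lysm-Cre; Ampkα1fl/fl libraries. The groups thus differed in Cre and in the level of *Lyz2* as well as in the targeted Ampkα1. The design cannot tell these apart. Skeletal muscle RNA differed widely between libraries of the same group. The 20 skeletal muscle markers, none of them a troponin or tropomyosin, together came to 149.5, 472.8 and 2349 CPM in control replicates 1, 2 and 3, and to 2350, 914.3 and 7099 CPM in Lysm-Cre; Ampkα1fl/fl replicates 1, 2 and 3. Of these markers 19 were tested, all with a fitted value above 0 and none past the edgeR threshold, and the 3 most abundant, *Acta1*, *Ckm* and *Mybpc1*, had log2 fold changes of 1.78, 1.95 and 1.87. Only Myf5, a factor of muscle precursors, was at 0 in a library, control replicate 1. The part of muscle content in the results below was not tested beyond the values given beside them. In bulk tissue, more muscle cells in the sample and more RNA per muscle cell cannot be told apart.

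Troponin C is encoded by *Tnnc1* in slow and cardiac muscle and by *Tnnc2* in fast muscle. *Tnnc1* lies on chromosome 14 (31208312 to 31211729, GRCm38.p6) and *Tnnc2* on chromosome 2 (164777161 to 164779734). Their coding sequences, of 483 and 480 bases in GENCODE, were identical at 68.1% of 479 aligned bases. The start of each coding sequence is shown because this amino-terminal part holds the calcium site that the slow form has lost, with capitals for bases that differ between both genes or have no counterpart.
*Tnnc1*: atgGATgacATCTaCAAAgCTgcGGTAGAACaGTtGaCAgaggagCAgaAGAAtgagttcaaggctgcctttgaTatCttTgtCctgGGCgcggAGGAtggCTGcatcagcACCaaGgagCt
*Tnnc2*: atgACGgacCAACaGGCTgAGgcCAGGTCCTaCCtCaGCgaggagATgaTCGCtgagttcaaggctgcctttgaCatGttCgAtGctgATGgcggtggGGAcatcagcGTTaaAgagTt
No window of 50 bases in either transcript occurred in a transcript of another gene.

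*Tnnc1* was measured at 2.87, 6.46 and 48.5 TPM, a level scaled for transcript length and library size, in control replicates 1 to 3. The Lysm-Cre; Ampkα1fl/fl libraries had 36.3, 41.0 and 187.9 TPM. Control replicate 3 lay above 2 of the 3 Lysm-Cre; Ampkα1fl/fl libraries, so the groups overlapped. Its log2 fold change was 2.22 ± 1.08 (SE, edgeR adjusted p = 0.409). Behind the lowest value of *Tnnc1* stood 11 reads, and behind the highest 707 reads.

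*Tnnc2* was far more abundant, at 57.3, 172.2 and 900.8 TPM in the controls. In the Lysm-Cre; Ampkα1fl/fl libraries it had 949.4, 282.8 and 2726 TPM. The lowest library was again control replicate 1 and the highest Lysm-Cre; Ampkα1fl/fl replicate 3, while Lysm-Cre; Ampkα1fl/fl replicate 2 lay below control replicate 3. In the edgeR fit the log2 fold change of *Tnnc2* was 1.84 ± 1.11 (SE, edgeR adjusted p = 0.511).

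The RefSeq promoter table (GRCm38.p6) covered 8 of the 10 genes with 11 annotated starts. The 250 bases ahead of the start of both troponin C genes are shown because the transcripts of these genes were low and high in nearly the same libraries. Capitals mark the E box CANNTG, which myogenic factors of the MyoD family can bind.
*Tnnc1*, chr14:31208062-31208311, plus strand: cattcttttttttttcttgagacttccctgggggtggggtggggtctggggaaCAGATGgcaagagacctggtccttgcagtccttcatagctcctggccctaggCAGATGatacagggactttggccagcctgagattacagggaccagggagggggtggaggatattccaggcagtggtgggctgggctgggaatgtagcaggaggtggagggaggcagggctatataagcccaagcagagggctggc
*Tnnc2*, chr2:164779735-164779984, minus strand: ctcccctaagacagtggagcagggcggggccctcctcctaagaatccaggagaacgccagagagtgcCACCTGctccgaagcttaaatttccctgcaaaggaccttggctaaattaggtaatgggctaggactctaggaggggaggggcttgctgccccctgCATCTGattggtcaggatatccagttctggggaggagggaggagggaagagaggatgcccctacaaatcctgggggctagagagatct
Each of these windows held 2 E boxes. The E box reads the same on both strands and occurred in 66.2% of the 32851 windows of that length in the table, and all 11 windows of the troponin and tropomyosin genes held it. CATTCC, searched on both strands, was in 12.6% of all windows and in those of *Tnnc1* and *Tpm1* and 1 of *Tnnt2*. TATAAA, searched on both strands, was in 12.4% of all windows and among these genes only in that of *Tnnt1*. The MEF2 motif was in 1.7% of all windows and in none of the 11. *Tnni2* and *Tnnt3* had no entry. A match to such short letters is a description of the sequence only.

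Troponin I is encoded by *Tnni1* in slow fibres (chromosome 1, 135783033 to 135810989) and by *Tnni2* in fast fibres (chromosome 7, 142441816 to 142444410). *Tnni1* had 2.33, 8.68 and 41.8 TPM in the controls. It had 36.6, 28.4 and 137.4 TPM in the Lysm-Cre; Ampkα1fl/fl libraries. Control replicate 3 lay above Lysm-Cre; Ampkα1fl/fl replicates 1 and 2. *Tnni1* had a log2 fold change of 1.94 ± 0.98 (SE, edgeR adjusted p = 0.43).

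*Tnni2* had 34.2, 95.7 and 428.2 TPM in the controls. In the Lysm-Cre; Ampkα1fl/fl libraries it had 458.8, 140.4 and 1518 TPM. Lysm-Cre; Ampkα1fl/fl replicate 2 was the only library of its group below control replicate 3. Its log2 fold change was 1.95 ± 1.09 (SE, edgeR adjusted p = 0.475). The coding sequences of *Tnni1* and *Tnni2* were identical at 67.8% of 540 aligned bases, and neither shared a window of 50 bases with another gene.

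Troponin T is encoded by *Tnnt1* in slow fibres (chromosome 7, 4504569 to 4515975) and by *Tnnt3* in fast fibres (chromosome 7, 142498771 to 142516213). *Tnnt1* had 4.29, 11.1 and 44.4 TPM in the controls. It had 46.0, 24.7 and 243.5 TPM in the Lysm-Cre; Ampkα1fl/fl libraries, with replicate 2 below control replicate 3. *Tnnt1* had a log2 fold change of 2.38 ± 1.09 (SE, edgeR adjusted p = 0.381), which was the largest of the 10 genes.

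*Tnnt3* had 49.0, 145.7 and 658.9 TPM in the controls. It had 801.9, 235.7 and 2181 TPM in the Lysm-Cre; Ampkα1fl/fl libraries. The order of the libraries was that of *Tnnc2* and *Tnni2*. Its log2 fold change was 1.93 ± 1.08 (SE, edgeR adjusted p = 0.475).

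*Tnnt2*, the troponin T of the heart and of embryonic skeletal muscle (chromosome 1, 135836315 to 135852268), was the lowest of the 10 genes. It had 0.73, 4.38 and 20.5 TPM in the controls, with 6, 37 and 161 reads. It had 12.5, 11.6 and 19.2 TPM in the Lysm-Cre; Ampkα1fl/fl libraries, so that control replicate 3 was the highest of all 6. *Tnnt2* had a log2 fold change of 0.73 ± 0.89 (SE, edgeR adjusted p = 0.773). *Tnnt2* made up 0.784% to 4.25% of the summed TPM of *Tnnt1*, *Tnnt2* and *Tnnt3* in a library. The cardiac troponin I gene *Tnni3*, outside the 10 genes, stood at 6.01 to 9.37 TPM, with a log2 fold change of 0.26 ± 0.23 (SE, edgeR adjusted p = 0.665). Of the other cardiac markers, Myh6 had at most 30 reads and Tbx5 at most 7 reads in a library, and the remaining 4 had 2 reads or fewer.

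**Figure D1:**
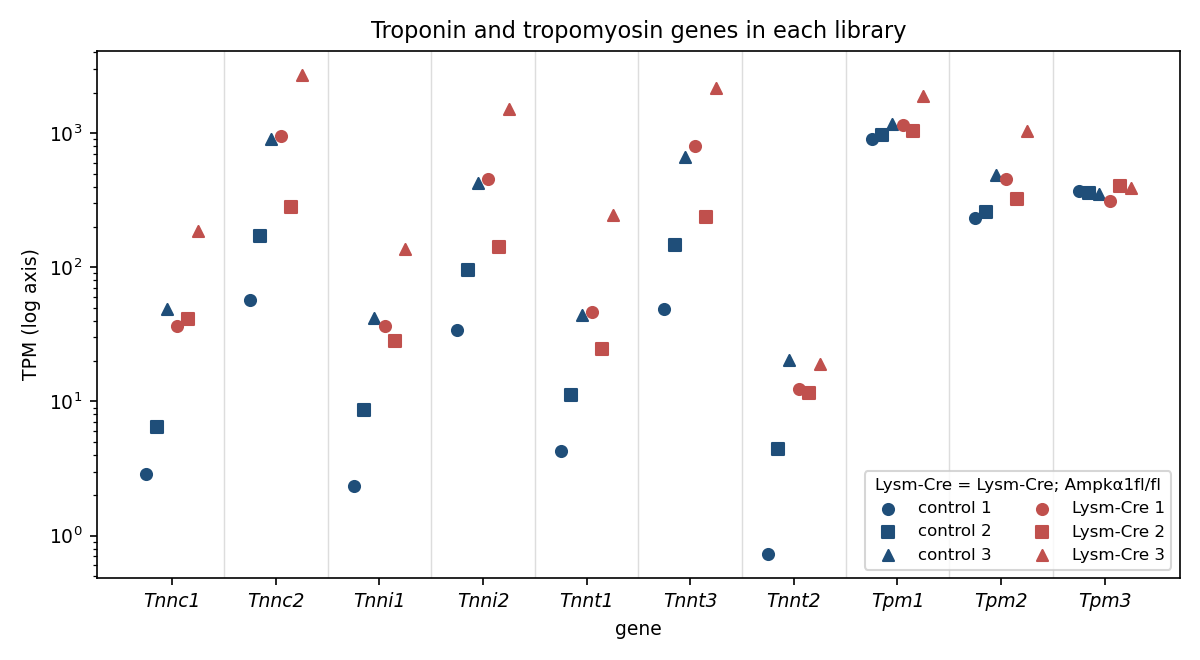
TPM of the 10 genes (log axis) in each library, with blue points for control and red points for Lysm-Cre; Ampkα1fl/fl mice and 1 marker shape for each replicate number. The 7 troponin genes spread over 28.1-fold to 65.5-fold between the lowest and the highest library, against 1.29-fold for Tpm3 and 2.09-fold for Tpm1.

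The tropomyosins were abundant in every library. *Tpm1* (chromosome 9, 67022590 to 67049672), the tropomyosin of fast fibres and of the heart, had 908.9, 966.0 and 1164 TPM in the controls and 1153, 1043 and 1903 TPM in the Lysm-Cre; Ampkα1fl/fl libraries. Lysm-Cre; Ampkα1fl/fl replicates 1 and 2 lay within the range of the controls, and replicate 3 lay above it. The log2 fold change of *Tpm1* was 0.30 ± 0.19 (SE, edgeR adjusted p = 0.527).

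*Tpm2* (chromosome 4, 43513726 to 43523583), the beta tropomyosin found in slow and fast fibres and in smooth muscle, had 234.9, 260.4 and 489.1 TPM in the controls. It had 453.4, 321.3 and 1045 TPM in the Lysm-Cre; Ampkα1fl/fl libraries. Control replicate 3 exceeded Lysm-Cre; Ampkα1fl/fl replicates 1 and 2. *Tpm2* had a log2 fold change of 1.05 ± 0.55 (SE, edgeR adjusted p = 0.452).

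*Tpm3* (chromosome 3, 90072651 to 90100902), the tropomyosin of slow fibres and a cytoskeletal tropomyosin of most cells, had 371.4, 360.7 and 349.1 TPM in the controls and 312.5, 401.9 and 390.7 TPM in the Lysm-Cre; Ampkα1fl/fl libraries. *Tpm3* had a log2 fold change of -0.03 ± 0.09 (SE, edgeR adjusted p = 0.923). Its libraries did not follow the order seen for the troponins. The value of *Tpm3* is uncertain in one respect, since 66.8% of the windows of 50 bases in its cytoskeletal transcript also occur in transcripts of *Tpm3-rs7* or of the predicted genes *Gm4157*, *Gm5996*, *Gm7839* and *Gm7848*. The other *Tpm3* transcripts matched to GENCODE shared 33.2% to 62.4% of their windows, all with *Tpm3-rs7* and *Gm4157* among the sharing genes. The values of single *Tpm3* transcripts below carry the same limit. The other cytoskeletal tropomyosin gene, *Tpm4*, had 707.2 to 828.2 TPM in the controls and 651.9 to 760.2 TPM in the Lysm-Cre; Ampkα1fl/fl libraries (log2 fold change -0.18 ± 0.08, edgeR adjusted p = 0.386).

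None of the 10 genes passed the threshold of 0.05 on the edgeR adjusted p, where 0.898% of the 14261 genes tested did. At an unadjusted p under 0.05 the count was also 0 of 10, against 14.5% of all genes tested, and DESeq2 called 0 of 10 as well. The fitted value was above 0 for 9 genes and below 0 for *Tpm3*, with a median log2 fold change of 1.88 over the 10 genes and of -0.002 over all genes tested. A log2 fold change of 1 or more was fitted for 7 of the 10 genes, against 2.12% of all genes. The groups overlapped for each of the 10 genes, while they did not overlap for 20.4% of all genes tested.

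The replicate numbers of the labels gave a second view of the same values. With the replicate number as a block, 0 of the 10 genes passed the threshold on the adjusted p, and 7 had an unadjusted p under 0.05, against 15.9% of all genes tested. These were the 6 slow and fast troponin genes and *Tpm2*. The smallest edgeR adjusted p with the block was 0.0525, for *Tnnc1* (log2 fold change 2.54), followed by 0.093 for *Tnni1* and 0.0971 for *Tnnt1*. In CPM, each of these 7 genes was higher in the Lysm-Cre; Ampkα1fl/fl library than in the control library of the same number. The share of all genes for which this held was not counted. The block fit itself compares libraries of the same number, so this order is no evidence apart from its p-values. The 7 genes also had similar patterns over the libraries (Pearson r of log2 CPM of 0.91 or more between them), so they are not 7 separate observations. The replicate numbers come from the sample titles, and nothing in the labels states what a number stands for.

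Control replicate 3 was the control with the most muscle RNA. Without it, 8 of the 10 genes had an unadjusted p under 0.05, against 16.1% of all genes in that fit, and none passed on the adjusted p. The log2 fold change of *Tnnc1* was then 4.22 (edgeR adjusted p = 0.176) and that of *Tnnc2* 3.51 (adjusted p = 0.219). Leaving out Lysm-Cre; Ampkα1fl/fl replicate 3, the library with the most muscle RNA, gave smaller fitted values for the troponins. In that fit 0 of the 10 genes had an unadjusted p under 0.05, against 12.6% of all genes, and 0 passed on the adjusted p. The log2 fold changes were then 0.98 for *Tnnc1*, 0.86 for *Tnni1*, 0.77 for *Tnnt1*, 0.70 for *Tnnc2*, 0.68 for *Tnni2* and 0.84 for *Tnnt3*, with edgeR adjusted p from 0.787 to 0.87. *Tpm2* had 0.26 and *Tpm1* 0.05 without that library.

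The slow and the fast troponins were next compared within each library, since the ratio of 2 genes in 1 library does not depend on how the libraries are scaled. Fast troponin transcripts exceeded the slow ones in each of the 6 libraries and for all 3 subunits. The fast gene was 6.88-fold to 26.3-fold above the slow gene for troponin C, 4.93-fold to 14.1-fold for troponin I and 8.95-fold to 17.4-fold for troponin T, in TPM.

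For troponin C, the log2 ratio of *Tnnc1* to *Tnnc2* was -4.27, -4.72 and -4.21 in the controls and -4.71, -2.78 and -3.86 in the Lysm-Cre; Ampkα1fl/fl libraries. Lysm-Cre; Ampkα1fl/fl replicate 2 had the highest slow share of all, with *Tnnc1* at 12.7% of the troponin C transcripts against 3.62% to 6.45% in the other libraries. The means differed by 0.62 on the log2 scale (exact two-sided permutation p = 0.4, n = 3 per group).

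The troponin I ratio of *Tnni1* to *Tnni2* was -3.82, -3.45 and -3.35 in the controls and -3.65, -2.30 and -3.46 in the Lysm-Cre; Ampkα1fl/fl libraries. The same library stood apart, with *Tnni1* at 16.8% against 6.38% to 8.90% elsewhere. The means differed by 0.40 (exact two-sided permutation p = 0.6, n = 3 per group). Without Lysm-Cre; Ampkα1fl/fl replicate 2 the difference was -0.016 for troponin I and 0.119 for troponin C.

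The troponin T ratio of *Tnnt1* to *Tnnt3* was -3.48, -3.70 and -3.89 in the controls and -4.12, -3.25 and -3.16 in the Lysm-Cre; Ampkα1fl/fl libraries. Here replicate 2 did not stand alone, since *Tnnt1* made up 9.07% of the summed TPM of the 3 troponin T genes in it and 9.97% in replicate 3. The means differed by 0.18 (exact two-sided permutation p = 0.6, n = 3 per group). All 3 ratios had an adjusted p of 0.6 over the 3 exact permutation tests, and the smallest p that 3 against 3 libraries allow is 0.1. The groups overlapped in each ratio.

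**Figure D2:**
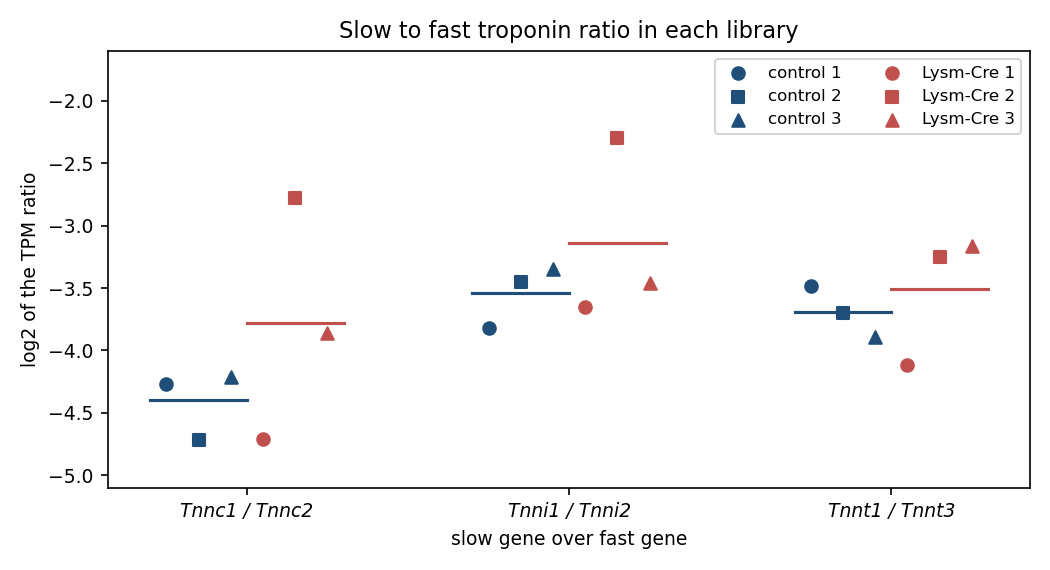
Log2 of the TPM ratio of the slow to the fast gene for troponin C, I and T in each library, with horizontal lines at the group means. All ratios lie below -2, and Lysm-Cre; Ampkα1fl/fl replicate 2 lies above the other 5 libraries for troponin C (-2.78) and troponin I (-2.30).

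The troponins as a whole followed the muscle markers from library to library. The 3 slow troponins summed to 9.49, 26.2 and 134.7 TPM in the controls and to 118.9, 94.1 and 568.8 TPM in the Lysm-Cre; Ampkα1fl/fl libraries. The 3 fast troponins summed to 140.5, 413.5 and 1988 TPM in the controls and to 2210, 658.9 and 6425 TPM in the Lysm-Cre; Ampkα1fl/fl libraries. The markers spanned 50.2-fold in summed TPM, the slow troponins 59.9-fold and the fast troponins 45.7-fold. The 3 tropomyosin genes together spanned only 2.20-fold.

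Per 1000 TPM of the muscle markers, *Tnnc2* stood at 228.5 to 308.4 TPM, a range of 1.35-fold over the 6 libraries. *Acta1* made up most of the marker sum, with 113.3 of 185.9 TPM in control replicate 1 and 6454 of 9335 TPM in Lysm-Cre; Ampkα1fl/fl replicate 3. This scale is thus largely a ratio to *Acta1*. The range per 1000 marker TPM was 1.62-fold for *Tnni2* and 1.38-fold for *Tnnt3*. The slow genes were less even, with 3.07-fold for *Tnnc1*, 1.97-fold for *Tnni1* and 1.88-fold for *Tnnt1*. *Tnnt2* ranged over 4.55-fold per 1000 marker TPM, highest in Lysm-Cre; Ampkα1fl/fl replicate 2 and lowest in Lysm-Cre; Ampkα1fl/fl replicate 3. *Tpm1*, *Tpm2* and *Tpm3* ranged over 24.0-fold, 11.3-fold and 47.7-fold on this scale, since they moved less than the markers did.

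**Figure D3:**
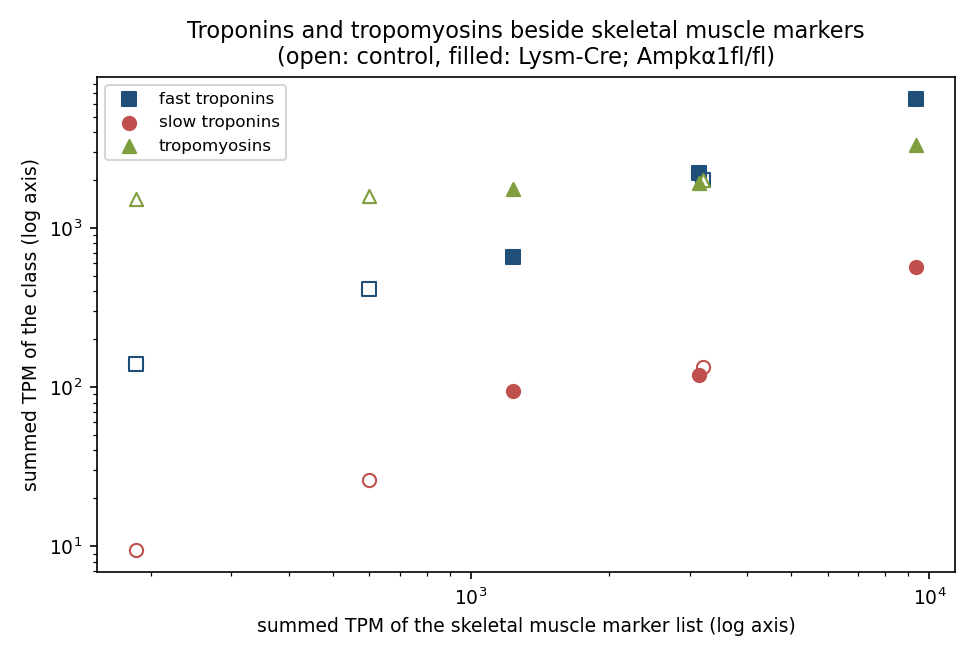
Summed TPM of the 3 fast troponins, the 3 slow troponins and the 3 tropomyosin genes against the summed TPM of the 20 skeletal muscle markers, both on log axes, with open symbols for control and filled symbols for Lysm-Cre; Ampkα1fl/fl libraries. The troponins run along the marker axis from 140.5 to 6425 TPM (fast) and from 9.49 to 568.8 TPM (slow), and the tropomyosins stay between 1515 and 3338 TPM.

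With the mean log2 CPM of the muscle markers as a covariate, the log2 fold changes of the 10 genes lay between -0.27 for *Tnnt2* and 0.54 for *Tnnc1*. The troponins followed these markers from library to library, so this fit cannot separate a group difference in them from one in muscle content. The fitted values (± SE) of the 3 slow troponins stayed above 0, at 0.54 ± 0.41 for *Tnnc1*, 0.25 ± 0.23 for *Tnni1* and 0.12 ± 0.32 for *Tnnt1*. The 3 fast troponins lay below 0, at -0.25 ± 0.19 for *Tnnc2*, -0.23 ± 0.24 for *Tnni2* and -0.12 ± 0.21 for *Tnnt3*. None of these values passed the threshold, with edgeR adjusted p of 0.744 for *Tnnc2* and 0.835 for *Tnni2*. Without Lysm-Cre; Ampkα1fl/fl replicate 2, the mean log2 slow to fast ratios differed by 0.119, -0.016 and 0.051 for troponin C, I and T. The covariate fit was not repeated without that library. The marker score itself was 1.21, 2.97 and 5.05 in the controls and 5.11, 3.95 and 6.64 in the Lysm-Cre; Ampkα1fl/fl libraries, so it differed between and within groups.

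**Figure D4:**
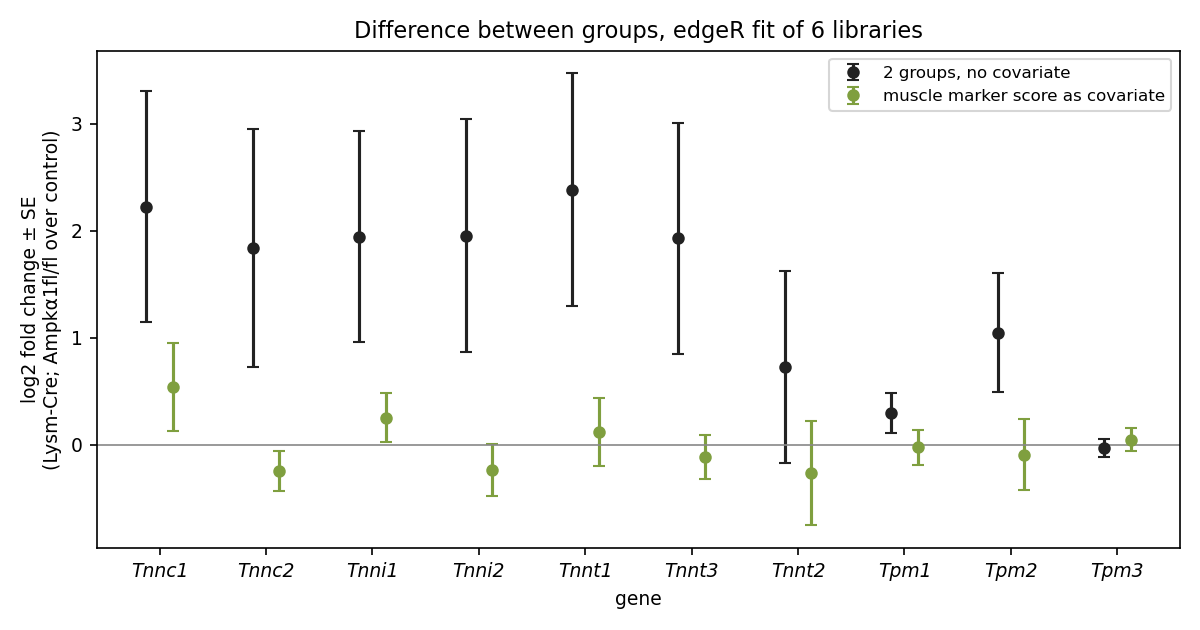
Log2 fold change (Lysm-Cre; Ampkα1fl/fl over control) of the 10 genes with its standard error, in the edgeR fit of 2 groups (black) and with the muscle marker score as a covariate (green). The black points of the 6 slow and fast troponin genes lie between 1.84 and 2.38, and the green points of the same genes between -0.25 and 0.54.

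Tropomyosin genes were then split by transcript, because their striated muscle and cytoskeletal products can differ in the last coding exon. GENCODE places the striated end of *Tpm1* at chr9:67029664-67029742, with the last coding base in the next exon, and the other end at chr9:67023362-67023441. For *Tpm2* these ends are chr4:43515924-43516003 and chr4:43514782-43514861, and for *Tpm3* chr3:90091013-90091091 and chr3:90099528-90099607. The last 80 coding bases before the stop codon are shown because they differ between the main striated and the main cytoskeletal transcript of each gene, with capitals where the 3 genes differ. The end alone does not make a muscle transcript, since NM_001253740 and NM_001271764 of *Tpm3* and NM_001164254 of *Tpm1* join the striated end to a start inside the gene. The first set is the striated end.
*Tpm1* striated end: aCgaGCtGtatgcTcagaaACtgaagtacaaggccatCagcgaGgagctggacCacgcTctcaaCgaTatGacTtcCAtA
*Tpm2* striated end: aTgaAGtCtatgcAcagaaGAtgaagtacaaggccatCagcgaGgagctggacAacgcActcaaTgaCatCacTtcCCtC
*Tpm3* striated end: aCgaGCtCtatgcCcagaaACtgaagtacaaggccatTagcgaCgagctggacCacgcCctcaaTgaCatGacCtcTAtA
The second set is the other end.
*Tpm1* other end: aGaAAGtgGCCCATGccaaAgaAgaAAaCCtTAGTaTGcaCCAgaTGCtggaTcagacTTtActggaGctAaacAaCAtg
*Tpm2* other end: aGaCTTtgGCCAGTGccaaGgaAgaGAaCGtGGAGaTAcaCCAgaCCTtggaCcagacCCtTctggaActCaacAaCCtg
*Tpm3* other end: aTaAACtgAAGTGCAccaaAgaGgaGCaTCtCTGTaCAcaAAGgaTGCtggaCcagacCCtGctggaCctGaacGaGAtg
Within a gene the 2 ends were identical at 42.5% of bases in *Tpm1*, 41.2% in *Tpm2* and 45.0% in *Tpm3*. Between genes the striated ends were identical at 81.2% to 88.8% of bases and the other ends at 60.0% to 71.2%. The striated ends of the 3 genes thus resembled each other more than either end resembled its partner in the same gene.

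The striated transcripts of *Tpm1* followed the troponins, and the others did not. The 3 transcripts with the striated end summed to 24.5, 68.8 and 237.8 TPM in the controls and to 299.0, 113.4 and 977.2 TPM in the Lysm-Cre; Ampkα1fl/fl libraries. This was a 39.9-fold range over the 6 libraries. The 5 transcripts with the other end had 868 ± 18.3 TPM (SD, n = 3) in the controls and 858 ± 40.5 TPM (SD, n = 3) in the Lysm-Cre; Ampkα1fl/fl libraries, a range of 1.09-fold. The striated share of *Tpm1* was 2.69% in control replicate 1 and 51.4% in Lysm-Cre; Ampkα1fl/fl replicate 3.

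Of the single *Tpm1* transcripts, NM_001164248 was the main striated one and had a log2 fold change of 2.08 (SE 1.10, edgeR adjusted p = 0.953 over all transcripts). NM_024427, with the other end, was the most abundant at 625.7 to 751.8 TPM and had a log2 fold change of 0.05 (SE 0.09). NM_001164249, which uses another second coding exon (chr9:67048124-67048249) and the other end, had 99.7, 90.3 and 99.8 TPM in the controls. It had 53.3, 109.4 and 34.5 TPM in the Lysm-Cre; Ampkα1fl/fl libraries, with a log2 fold change of -0.58 (SE 0.39).

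In *Tpm2* the 2 transcripts with the striated end summed to 27.9, 40.6 and 123.2 TPM in the controls and to 120.3, 61.4 and 360.1 TPM in the Lysm-Cre; Ampkα1fl/fl libraries. NM_001277876, with the other end and another sixth coding exon (chr4:43519003-43519078), had 47.0, 42.4 and 32.5 TPM in the controls. It had 26.2, 37.4 and 16.8 TPM in the Lysm-Cre; Ampkα1fl/fl libraries, so it was lowest where the striated transcripts were highest. Its log2 fold change was -0.62 (SE 0.29, edgeR adjusted p = 0.908). Most of the *Tpm2* signal, 66.6% of its TPM over the 6 libraries, was assigned to XM_006537780, for which no GENCODE match was found, so its end was not read.

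*Tpm3* makes its muscle transcript from an upstream start and its cytoskeletal transcript from a start inside the gene. The 3 transcripts with the striated end summed to 20.8, 28.1 and 37.5 TPM in the controls and to 37.0, 29.1 and 106.7 TPM in the Lysm-Cre; Ampkα1fl/fl libraries, a 5.14-fold range. They did not move together. NM_001293748, which begins coding at chr3:90072737-90072850 and has the striated end, was listed at 0, 0.88 and 7.67 TPM in the controls. It had 15.6, 6.51 and 86.9 TPM in the Lysm-Cre; Ampkα1fl/fl libraries. Its order of libraries was close to that of the troponins, with only Lysm-Cre; Ampkα1fl/fl replicate 2 below control replicate 3. The log2 fold change of NM_001293748 was 3.70 (SE 1.72, edgeR adjusted p = 0.897). NM_001253740 and NM_001271764 have the same end but begin coding at the inner start, and their log2 fold changes were 0.03 and -0.52. NM_001253740 had 5.78, 7.95 and 14.3 TPM in the controls and 11.7, 9.48 and 7.65 TPM in the Lysm-Cre; Ampkα1fl/fl libraries. NM_001253738, which begins coding at chr3:90079732-90079863, had 258.4, 227.0 and 199.2 TPM in the controls and 230.7, 253.9 and 203.2 TPM in the Lysm-Cre; Ampkα1fl/fl libraries, and made up 62.8% of the TPM of the gene. XM_006501841, with no GENCODE match found, had 85.0, 100.3 and 104.5 TPM in the controls and 38.9, 109.3 and 54.1 TPM in the Lysm-Cre; Ampkα1fl/fl libraries.

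The RefSeq windows of 250 bases ahead of both *Tpm3* starts are shown because the transcripts from them differed so much in level, with capitals for the E box.
*Tpm3* upstream start, chr3:90072401-90072650, plus strand: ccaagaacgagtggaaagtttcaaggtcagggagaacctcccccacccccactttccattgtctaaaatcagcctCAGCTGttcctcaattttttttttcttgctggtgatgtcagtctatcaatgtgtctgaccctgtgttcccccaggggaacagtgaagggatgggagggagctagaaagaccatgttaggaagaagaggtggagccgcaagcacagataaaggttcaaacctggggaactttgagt
*Tpm3* inner start, chr3:90079271-90079520, plus strand: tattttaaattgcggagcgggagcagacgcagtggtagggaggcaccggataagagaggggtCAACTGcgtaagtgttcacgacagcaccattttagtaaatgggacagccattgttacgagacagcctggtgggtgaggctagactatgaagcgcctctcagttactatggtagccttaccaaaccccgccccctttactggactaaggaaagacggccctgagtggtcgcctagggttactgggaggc
Each window held 1 E box.

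**Figure D5:**
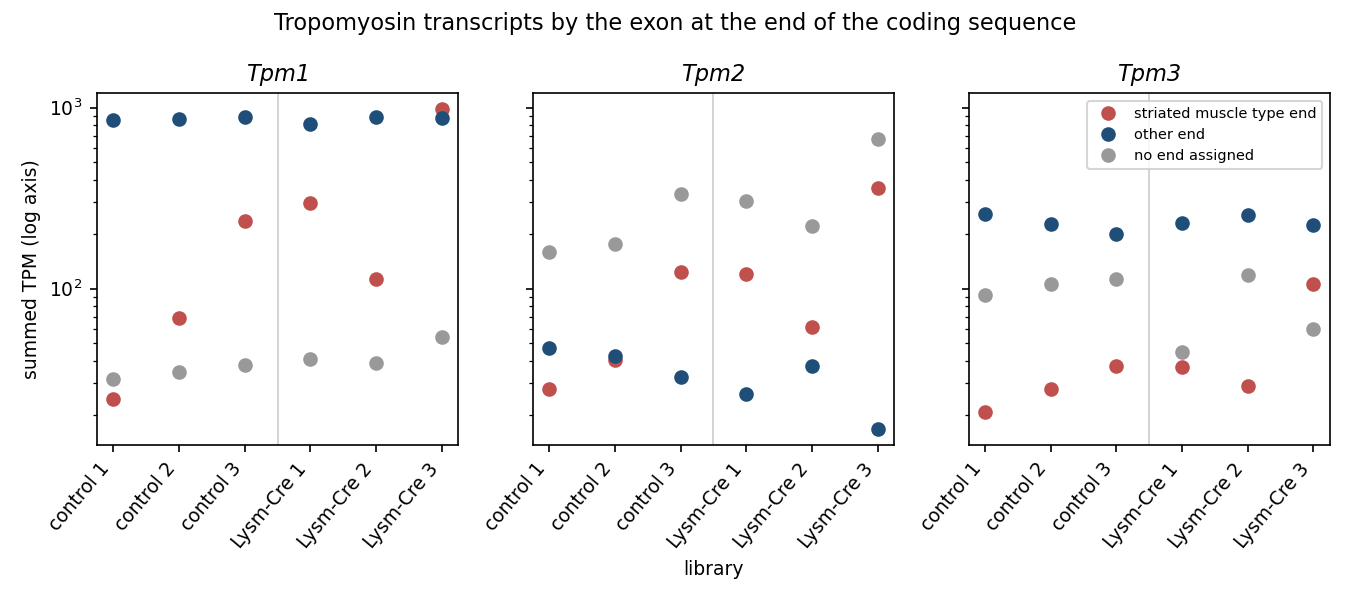
Summed TPM (log axis) of Tpm1, Tpm2 and Tpm3 transcripts in each library by the exon at the end of the coding sequence, in red for the striated end, in blue for the other end and in grey where no end was assigned, so that red includes 2 transcripts of Tpm3 and 1 of Tpm1 that begin at an inner start. The red points of Tpm1 run from 24.5 to 977.2 TPM, while its blue points lie within a 1.09-fold range.

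The troponin T genes made many transcripts by splicing near the start of the coding sequence. *Tnnt3* had 44 transcripts in the table, of which 7 held at least 5% of its TPM each. The most abundant, NM_001163666, had 18.3, 54.6 and 206.1 TPM in the controls and 129.5, 55.3 and 369.8 TPM in the Lysm-Cre; Ampkα1fl/fl libraries. NM_001360158 was lower and more uneven, with 1.36, 2.14 and 26.8 TPM in the controls and 67.4, 3.23 and 248.8 TPM in the Lysm-Cre; Ampkα1fl/fl libraries. The 7 transcripts had log2 fold changes from 1.01 for NM_001163666 to 3.43 for NM_001360158.

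*Tnnt1* had 9 transcripts, with NM_011618 at 41.9% and NM_001277903 at 35.7% of its TPM. These 2 transcripts differ by 3 coding bases, at 783 and 786 bases. NM_011618 had 1.83, 3.19 and 18.7 TPM in the controls and 21.7, 10.8 and 100.4 TPM in the Lysm-Cre; Ampkα1fl/fl libraries. *Tnnt2* was mostly NM_011619, at 57.5% of its TPM, and *Tnni1* mostly NM_021467, at 97.6%. The share given to each transcript is an estimate of the authors' software, and for transcripts as alike as these it is less sure than the sum over the gene.

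Of the 104 transcripts of the 10 genes, 57 passed the filter on low counts, and none of them passed the threshold in the edgeR fit of 35819 transcripts, where 0.00279% did. At an unadjusted p under 0.05 there was 1 of 57, against 6.11% of all transcripts. This was NM_001271764 of *Tpm3*, with the striated end and the inner start, named here after its value was seen, at 15.0, 19.2 and 15.6 TPM in the controls and 9.74, 13.1 and 12.1 TPM in the Lysm-Cre; Ampkα1fl/fl libraries (log2 fold change -0.52, edgeR adjusted p = 0.678). With the replicate block, 13 of the 57 transcripts had an unadjusted p under 0.05, against 5.42% of all transcripts, and 0 passed on the adjusted p.

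Other genes of the muscle fibre were read in the same fit. All 20 partners of the thin filament and the Z-disc had a fitted value above 0, with a median log2 fold change of 1.80, and 0 of them passed the edgeR threshold (smallest adjusted p 0.362). Skeletal actin *Acta1*, the most abundant of these, had a log2 fold change of 1.78 ± 1.14 (SE), the Z-disc actinin *Actn2* 2.16 ± 1.17 and the muscle cofilin *Cfl2* 0.45 ± 0.30. Of the 17 genes of calcium release and uptake, 16 were tested and all 16 had a fitted value above 0, with a median of 1.51 and none past the threshold. Among them the fast calcium pump *Atp2a1* had a log2 fold change of 1.80 ± 1.17, the calcium store protein *Casq1* 1.51 ± 1.01 and the slow and housekeeping pump *Atp2a2* 0.11 ± 0.06.

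The companions of slow and of fast fibres were set beside the slow and fast troponins. The median log2 fold change was 2.80 over the 8 slow companions that could be tested and 1.79 over the 11 fast companions, with 0 genes past the edgeR threshold in either list. At an unadjusted edgeR p under 0.05 there were 4 of the 8 slow and 0 of the 11 fast companions, against 14.5% of all genes. The slow median includes genes with few reads in control replicate 1, such as *Myh7* with 4 reads. The most abundant slow companion, *Atp2a2*, had a log2 fold change of only 0.11 ± 0.06 (SE). Slow myosin *Myh7* had 0.212, 3.33 and 17.1 CPM in the controls and 26.3, 13.1 and 169.0 CPM in the Lysm-Cre; Ampkα1fl/fl libraries. The log2 fold change of *Myh7* was 3.34 ± 1.33 (SE, adjusted p = 0.313). The fast myosin light chains *Mylpf* and *Myl1* had log2 fold changes of 1.81 ± 1.08 and 1.64 ± 1.09. The cardiac calsequestrin *Casq2*, used in slow fibres, had 1.79 ± 1.03.

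As sums over each list, the smooth muscle and the macrophage markers were lowest in Lysm-Cre; Ampkα1fl/fl replicate 3, the library with the highest troponins, although single genes such as *Rgs5*, lowest in replicate 2, differed from the sum. The 12 smooth muscle and pericyte markers, which include other users of *Tpm1* and *Tpm2*, summed to 2188 to 2260 CPM in the controls and to 1802 to 1973 CPM in the Lysm-Cre; Ampkα1fl/fl libraries. *Des*, named here because it is also a skeletal muscle marker, counts towards both sums. It had 30.1 to 119.3 CPM in the controls and 81.1 to 368.1 CPM in the Lysm-Cre; Ampkα1fl/fl libraries, highest in replicate 3. In that list 3 genes had a fitted value above 0 and 9 below, with a median log2 fold change of -0.39 and none past the threshold, and smooth muscle actin *Acta2* had -0.56 ± 0.13 (SE, edgeR adjusted p = 0.124), *Rgs5* -0.38 ± 0.08 and *Tagln* -0.17 ± 0.19. The 10 macrophage markers summed to 990.1 to 1038 CPM in the controls and 625.8 to 832.7 CPM in the Lysm-Cre; Ampkα1fl/fl libraries, with 2 genes above 0 and 8 below, a median log2 fold change of -0.30 and none past the threshold (smallest edgeR adjusted p 0.0508). The 3 most abundant were *Csf1r* at -0.64 ± 0.13 (adjusted p = 0.0933), *Mrc1* at -0.83 ± 0.19 (adjusted p = 0.115) and *C1qb* at -0.18 ± 0.08 (adjusted p = 0.349). The 12 tendon markers had a median of 0.04, with 6 above 0 and 6 below and 1 past the threshold, against 0.898% of all genes. This was *Dcn*, the proteoglycan decorin, named here after its value was seen, with a log2 fold change of -0.45 ± 0.06 (SE, edgeR adjusted p = 0.0301) and 2927 to 3175 CPM in the controls against 2099 to 2264 CPM. Collagens *Col1a1* and *Col1a2* had log2 fold changes of -0.0045 and -0.0087, and *Fmod* 0.09 ± 0.09. The part of the smooth muscle cells in the *Tpm1* and *Tpm2* values was not tested.

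Over the 6 libraries, the 3 fast troponin genes had almost the same pattern, with a Pearson r of log2 CPM of 1.00 for each pair. *Tnnc1* and *Tnni1* reached 0.99, and *Tnnc1* and *Tnnc2* 0.94. The r of *Tpm3* with the other 9 genes lay between -0.55 and -0.20. These values describe 6 libraries of 2 groups, and muscle RNA varied between and within both groups. For each gene, 34 to 270 of the 14220 genes compared had an r above 0.95.

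The 2 genes with the pattern most like each one were as follows. For *Tnnc1* they were *Bex1* (r = 0.995) and *Chrnd* (0.994), a subunit of the acetylcholine receptor of muscle. For *Tnni1* they were *Cav3* (0.999), a caveolin of the muscle membrane, and *Smyd1* (0.997), and for *Tnnt1* *Camk2g* and *Cacnb1* (both 0.999). *Tnnc2* was closest to *Myom2* and *Jph1* (both 0.999), *Tnni2* to *Ppp1r3a* and *Jph1* (both 0.999), and *Tnnt3* to *Fbxo40* and *Ppp1r3a* (both 0.998). *Tnnt2* was closest to *Mkrn3* (0.993) and *Mybph* (0.991). *Tpm2* was closest to *Bves* and *Asb16* (both 0.997), and *Tpm1* to *Eda2r* (0.993) and *Cfl2* (0.991). *Tpm3* was closest to *Aox4* (0.996) and *Klrb1f* (0.994).

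Some troponin genes are neighbours in the genome. *Tnni1* and *Tnnt2* lie 25.3 kb apart on chromosome 1, with 1 gene between them, and had log2 fold changes of 1.94 and 0.73. *Tnni2* and *Tnnt3* lie 54.4 kb apart on chromosome 7, also with 1 gene between, and had 1.95 and 1.93. *Tnnt1* and the cardiac gene *Tnni3* lie 2.3 kb apart on chromosome 7 with no gene between, and had 2.38 and 0.26. Between the last pair the level also spanned different ranges, 56.8-fold for *Tnnt1* and 1.56-fold for *Tnni3* over the 6 libraries.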

How the data were processed

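Achilles tendon repair tissue of 3 control and 3 Lysm-Cre; Ampkα1fl/fl neonatal mice was sequenced on the BGISEQ platform. The deposited table held, per the file headers, estimated read counts (expected counts, not whole numbers) and TPM values for 65053 RefSeq transcripts, and the labels name the genome build GRCm38.p6. The aligner and the counting program were not given in the sources used here. Another 20 columns of values were not used, among them the authors' own comparisons. Reads were summed per NCBI gene and rounded, and 18049 of 18099 genes (99.72%) had a symbol in the reference tables.

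Groups were compared with edgeR 4.0.16 (TMM, filterByExpr, quasi-likelihood F test) in R 4.3.3, with Benjamini-Hochberg adjustment over all 14261 genes tested and a threshold of 0.05. Transcripts were fitted in the same way. DESeq2 1.42.0 and limma 3.58.1, on log2(TPM + 1), were alternatives. Ratios used TPM with a pseudocount of 0.1 and exact permutation tests. The fits were tested on simulated data. Levels were compared between genes in TPM, and most levels of a gene in each library are also listed in TPM. The edgeR fits used read counts, and the counts of overlapping groups used CPM. The 2 scales can order libraries differently. *Tpm3* in Lysm-Cre; Ampkα1fl/fl replicate 3 had 390.7 TPM, above every control, but 331.3 CPM, below control replicates 1 (343.8 CPM) and 2 (342.7 CPM). Sequences came from RefSeq and GENCODE vM21 tables. Depth limits the lowest genes, where a value rests on a few reads.

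The genes and gene lists were chosen with earlier results of these data known. The text names the 10 genes, *Prkaa1*, *Lyz2*, *Tnni3*, *Tpm4*, the 3 genes with the highest mean CPM of each other list, the 2 genes most like each of the 10, and transcripts with at least 5% of the TPM of their gene. Same-numbered libraries had weak positive correlations of their deviations from the group means (r = 0.184, 0.118 and 0.31 for numbers 1, 2 and 3). Control replicate 1 correlated best with Lysm-Cre; Ampkα1fl/fl replicate 2 (r = 0.501), and control replicate 2 with Lysm-Cre; Ampkα1fl/fl replicate 3 (r = 0.127). The correlations thus do not show that the numbers mark pairs, and the replicate block rests on an assumed pairing. The design text gives 3 mice per condition, and the labels do not say from which litters they came.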

Additional observations from a re-analysis of the deposited data

How the results depend on the processing

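No troponin or tropomyosin gene passed the threshold in the edgeR fit or under any of the 14 alternatives. Of 139 fold changes refitted for these genes, 130 kept their sign. With the muscle marker score as a covariate 7 changed sign, to -0.245 for *Tnnc2*, -0.233 for *Tnni2*, -0.117 for *Tnnt3*, -0.265 for *Tnnt2*, -0.022 for *Tpm1*, -0.093 for *Tpm2* and 0.048 for *Tpm3*. *Tpm3* also changed sign with limma (0.023) and without Lysm-Cre; Ampkα1fl/fl replicate 1 (0.047), within a range of -0.096 to 0.047 over the fits that leave out 1 library. *Tnnt2* was not tested where 10 counts were required in every library. The genes called over the whole table numbered 128, and 688 with DESeq2, 47 with the replicate block, 55 with the muscle marker score and 68 with limma. Leaving out 1 library gave 8 to 276 genes called, with the lowest without control replicate 2 and the highest without Lysm-Cre; Ampkα1fl/fl replicate 2. The replicate block changed no call of the 10 genes or of their transcripts. The troponin ratios kept their direction except for troponin I without Lysm-Cre; Ampkα1fl/fl replicate 2 (-0.016), and leaving out 1 library moved the differences over -0.016 to 0.656 for troponin I, 0.119 to 1.08 for troponin C and 0.006 to 0.485 for troponin T. The replicate block gave an exact p of 0.5 to 0.75 for the ratios, where 3 pairs allow no p below 0.25. The causes were not tested. The lowest values, 6 reads of *Tnnt2* and 11 of *Tnnc1* in control replicate 1, rest on few reads.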
